A study of Mus musculus with 9 samples.

Results

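Interferon-stimulated genes were followed in enteric glia, the support cells of the gut's own nervous system, with and without lipopolysaccharide (LPS) in culture and directly after isolation. The set held 37 genes chosen by name from what is known of the interferon response, with earlier results of these data already at hand. Every probe that carried a member's symbol on the bead array was read. Of these, 36 genes had 57 probes among the 16593 genes named on the array. Ifi44 had no probe.

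RNA of 3 groups with 3 arrays each was hybridized to mouse bead arrays. LPS-stimulated gliospheres were spheres of cultured GFAP-glia given LPS of E. coli O26:B6 at 100 µg/ml for 48 h, untreated gliospheres came from the partner well of the same preparation without LPS, and GFAP-glia in vivo were lysed straight from the cell sorter without culture. All 3 groups came from the small intestine of FVB/hGFAP-eGFP mice at postnatal day 7, with the animals of 1 litter pooled for each replicate. Fluorescence in these mice is made under the human GFAP promoter, so that the sort took cells by the activity of a transgene, and the spheres also held cells without fluorescence by the study's account. Before passage to spheres the cells had grown attached for about 2 weeks at 2% oxygen with EGF and bFGF (40 ng/ml each).

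Interferons are secreted proteins that bind receptors on the cell surface and act through JAK kinases and STAT transcription factors. Type I interferons mainly act through a complex with STAT2 and IRF9 that binds the interferon-stimulated response element (ISRE), whereas interferon-gamma mainly acts at gamma-activated sites (GAS) and through IRF1. The products of the genes they induce sense viral RNA, block viral replication or attack intracellular bacteria, and LPS is known to start the response in many cells through Toll-like receptor 4.

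Values are log2 signals after background correction and variance stabilization over all arrays, and a probe counts as detected where its deposited detection p-value is at most 0.05. By at least 1 probe, 18 member genes were detected on all 9 arrays, 9 on some of them and 9 on none. The 9 genes that were not detected were Ifih1, Ifit1, Iigp1, Isg20, Mx1, Oas2, Oasl1, Socs1 and Xaf1. The tests therefore covered 38 probes of 27 member genes, out of 14795 probes of 10796 genes in all. Among member probes, 30, 30 and 32 were detected on the LPS-stimulated arrays, 27, 28 and 30 on the untreated arrays and 30, 30 and 36 on the in vivo arrays. In such bulk RNA, fewer expressing cells and less RNA per cell cannot be told apart.

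Between 46.6 and 50.1% of the probes were detected on each array, and median deposited signals were 145.2 to 195.6 on LPS-stimulated, 193.6 to 215.5 on untreated and 123.8 to 164.5 on in vivo arrays. Replicate arrays of the gliospheres correlated at 0.975 to 0.980 over all tested probes, and the in vivo arrays at 0.910 (replicates 1 and 2), 0.899 (1 and 3) and 0.963 (2 and 3). Gfap, the gene that names the sorted cells, was detected on all gliosphere arrays, with 8.61 ± 0.23 in LPS-stimulated and 8.15 ± 0.81 in untreated gliospheres (SD, n = 3 each), but on 0 of 3 in vivo arrays. The other tested glial markers varied. Entpd2 was detected on all 9 arrays. S100b was detected on 2 of 3 LPS-stimulated, 3 of 3 untreated and 2 of 3 in vivo arrays, and Fabp7 on 2 in vivo arrays only. Enteric neuron markers averaged 9.36 to 9.68 on LPS-stimulated, 9.14 to 9.61 on untreated and 10.08 to 10.30 on in vivo arrays. Smooth muscle markers averaged 5.80 to 5.98 on LPS-stimulated, 5.34 to 5.78 on untreated and 8.04 to 9.52 on in vivo arrays, and immediate early genes averaged 8.73 to 9.51, 8.68 to 9.66 and 11.09 to 11.77 in the same order of groups. Macrophage and leukocyte markers, with 3 to 5 of 10 genes detected on each array, averaged 3.77 to 4.20, 3.67 to 4.12 and 4.33 to 4.68. Of the 6 tested genes of this list, 0 passed between LPS-stimulated and untreated gliospheres, and against in vivo arrays 1 was higher (Lyz2) and 2 were lower (Adgre1 and Cd3e) in each of LPS-stimulated and untreated gliospheres. Between the gliosphere groups, Lyz2 differed by 2.53 and 2.21 on its probes without overlap (adjusted p = 0.104 and 0.484 in limma). Adgre1 differed by -1.39 and -0.98 with overlap (adjusted p = 0.901 and 0.933). The part of these cell types in the results below was not tested.

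To ask which interferon-stimulated genes respond to LPS in cultured glia, LPS-stimulated gliospheres were compared with untreated gliospheres. The guanylate-binding protein genes Gbp2 and Gbp5 and the transcription factor gene Irf1 rose with LPS, whereas 0 of 17 probes of antiviral effectors passed. Of the 38 member probes, 3 probes of 3 genes rose (adjusted p under 0.05 in limma's moderated test), 0 fell and 35 did not pass, against 0.716% of all tested probes that rose and 0.162% that fell. The study had already listed Irf1 and Gbp5 among the genes changed by LPS in these data, so this count is no independent support. With litter as a block and the gliosphere arrays alone, none of these 3 calls held (adjusted p = 0.0523 for Gbp2, 0.0631 for Gbp5 and 0.0609 for Irf1 in limma), while both probes of Gbp3 passed (0.0471 and 0.0459). Without adjustment, 11 member probes were higher at a p under 0.05 and 0 lower, against 4% and 3.64% of all probes. All 3 LPS-stimulated arrays lay above all 3 untreated arrays on 15 member probes and below them on 0, whereas this was the case for 10% and 9.19% of all probes. The median log2 difference was 0.37 over the tested member probes and -0.00 over all tested probes, and over all 57 member probes, detected or not, it was 0.33.

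Among the GTPases, which bind to the membranes around intracellular pathogens and help to break them, 2 of 7 tested probes rose and 6 of 7 did not overlap between the groups. Gbp2 was read by a single tested probe, since the other probes of the gene were detected on no array. Its log2 signals were 11.62, 12.19 and 10.73 in LPS-stimulated gliospheres, against 8.75, 7.70 and 7.71 in untreated gliospheres. The LPS-stimulated arrays all lay well above the untreated arrays, with replicate 3 the lowest of the LPS-stimulated arrays. The means were 11.51 ± 0.74 and 8.05 ± 0.60 (SD, n = 3 each), a log2 difference of 3.46 (SE 0.51, adjusted p = 0.0156 in limma). As deposited, before any correction, the signals were 4211, 5391 and 1749 in LPS-stimulated gliospheres and 764.3, 446.9 and 494.6 in untreated gliospheres.

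Gbp5, whose product helps to assemble inflammasomes, was detected on 3 of 3 LPS-stimulated arrays and on 0 of 3 untreated arrays, and it entered the tests through its LPS-stimulated arrays alone. Its log2 signals were 7.14, 7.42 and 6.62 in LPS-stimulated gliospheres, against 4.55, 2.41 and 2.81 in untreated gliospheres. Because untreated signals were not above background, only a lower bound of the change can be given, and Gbp5 rose at least 4.87-fold (adjusted p = 0.0283 in limma). The bound sets the mean of the LPS-stimulated arrays against, on each untreated array, either the Gbp5 signal itself or the dimmest detected probe, whichever was brighter.

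Gbp3, another guanylate-binding protein gene, was read by a pair of tested probes. The brighter one had 10.27, 9.71 and 8.89 in LPS-stimulated gliospheres, against 7.19, 6.67 and 6.87 in untreated gliospheres, and the other had 10.09, 9.48 and 8.92, against 7.18, 6.04 and 6.08. On both probes every LPS-stimulated array lay above every untreated array. Their log2 differences of 2.71 (SE 0.72) and 3.06 (SE 1.22) did not pass the test, which pools the spread over all 3 groups (adjusted p = 0.198 and 0.551 in limma). With only the gliosphere groups in the fit both passed (0.0255 and 0.0272). Igtp, an immunity-related GTPase, had 7.57, 7.82 and 7.84 in LPS-stimulated gliospheres, against 6.64, 7.35 and 7.38 in untreated gliospheres, and its difference of 0.62 did not pass.

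Of the transcription factor genes, Irf1 was read by 4 tested probes, all with higher LPS-stimulated than untreated arrays and no overlap. The probe that passed had 10.33, 10.59 and 10.12 in LPS-stimulated gliospheres, against 8.88, 9.16 and 9.07 in untreated gliospheres. These levels were tight within each group, at 10.35 ± 0.23 and 9.04 ± 0.14 (SD, n = 3 each), and Irf1 rose by 1.31 on the log2 scale (SE 0.23, adjusted p = 0.0348 in limma). The brightest probe of the gene had 11.96, 12.18 and 11.57 in LPS-stimulated gliospheres, against 10.88, 10.91 and 10.81 in untreated gliospheres. This difference of 1.04, and those of 1.10 and 1.09 on the remaining dim probes, did not pass (adjusted p = 0.996, 0.191 and 0.217). The pooled spread of the brightest probe took in an SD of 1.71 in vivo, against 0.31 in LPS-stimulated and 0.05 in untreated gliospheres.

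The other members of this role did not pass. Irf8, a factor best known from myeloid cells, had 6.36, 5.96 and 4.99 in LPS-stimulated gliospheres, against 5.33, 4.69 and 4.77 in untreated gliospheres, with overlap between the groups. Stat2 had 6.37, 6.73 and 6.57, against 5.74, 6.43 and 6.19 in untreated gliospheres, and Irf9 had 8.15, 8.28 and 8.27, against 7.60, 8.24 and 8.09. The groups overlapped for both of these partners of the ISRE-binding complex. Irf7, which amplifies type I interferon production, was not detected on any gliosphere array.

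**Figure D1:**
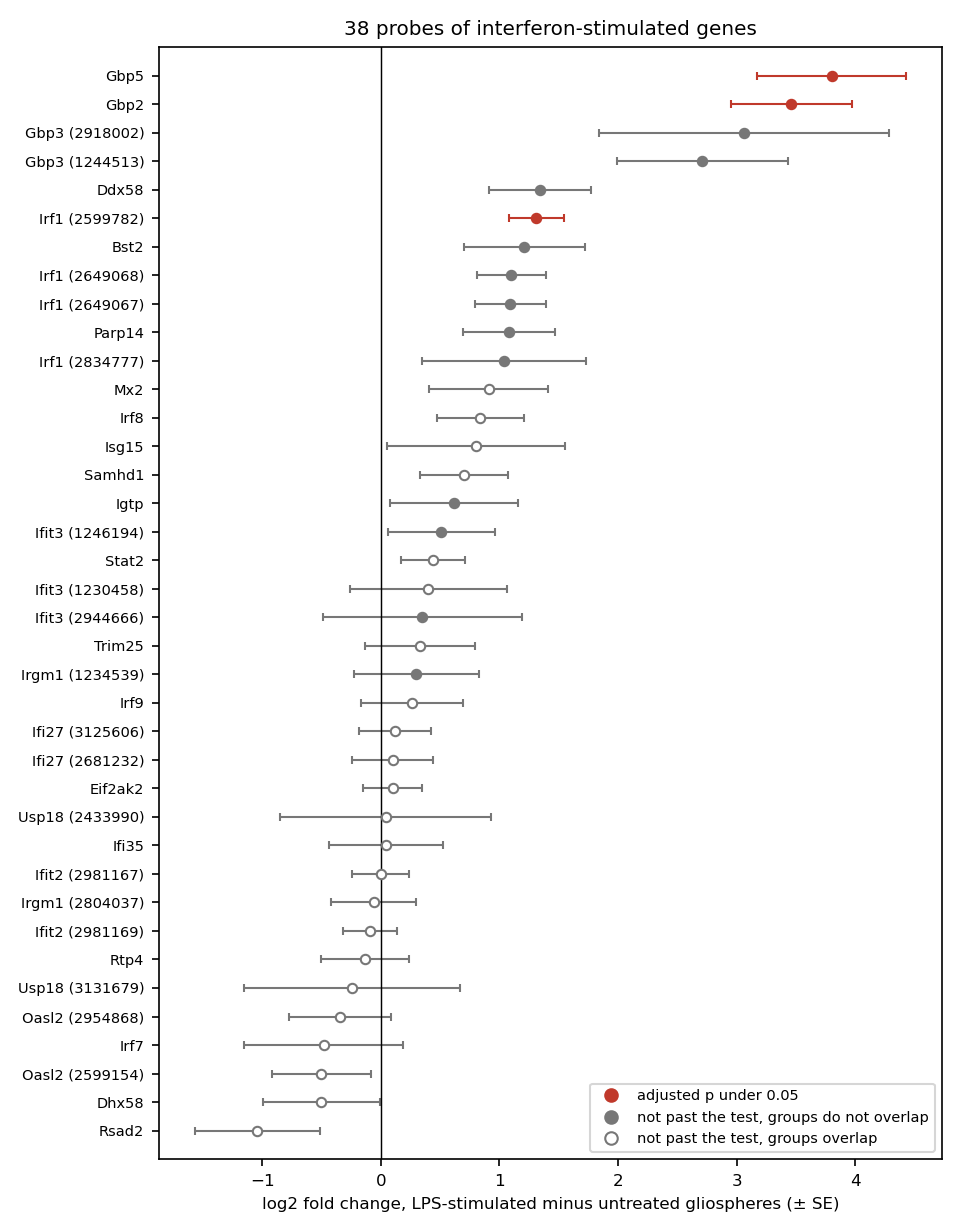
Log2 difference between LPS-stimulated and untreated gliospheres for the 38 tested member probes, with bars for the SE and filled points where the 3 LPS-stimulated arrays do not overlap with the 3 untreated arrays. The 3 probes past the test, drawn in red, belong to Gbp2, Gbp5 and Irf1, and no probe without overlap lies below 0.

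The promoters of the members at the head of this comparison are shown as a description, and the part of their motifs in the rise was not tested. Members without a call here held such motifs too, among them Isg15 and Stat2 (ISRE core) and Ifit2 (NF-kB motif). Each spans 250 bases before to 50 bases after the start in RefSeq on GRCm38.p6, and is printed 5′ to 3′ along the gene. Capitals mark matches, on either strand, to the ISRE core (GAAA and GAAA parted by any 2 bases), to the GAS motif TTCNNNGAA or to the consensus motif of NF-kB. Gbp2 (chr3:142620413-142620712, plus strand) held 1 ISRE core and 1 NF-kB motif. Gbp3, from the first of its listed starts (chr3:142559794-142560093, plus strand), held 2 overlapping ISRE cores. Gbp5 (chr3:142496684-142496983, plus strand) held 1 ISRE core, 2 GAS motifs and 1 NF-kB motif. Irf1, from its first start (chr11:53769764-53770063, plus strand), held 1 GAS motif and 1 NF-kB motif and no ISRE core. The other listed start of Gbp3 and that of Irf1, not printed here, held no match to any of these motifs.
Gbp2: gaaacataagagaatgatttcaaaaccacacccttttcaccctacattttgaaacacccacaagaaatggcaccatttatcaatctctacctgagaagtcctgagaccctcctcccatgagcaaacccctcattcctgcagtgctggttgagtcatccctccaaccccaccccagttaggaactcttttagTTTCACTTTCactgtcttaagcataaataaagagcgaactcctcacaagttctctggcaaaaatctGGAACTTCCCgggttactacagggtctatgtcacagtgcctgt
Gbp3: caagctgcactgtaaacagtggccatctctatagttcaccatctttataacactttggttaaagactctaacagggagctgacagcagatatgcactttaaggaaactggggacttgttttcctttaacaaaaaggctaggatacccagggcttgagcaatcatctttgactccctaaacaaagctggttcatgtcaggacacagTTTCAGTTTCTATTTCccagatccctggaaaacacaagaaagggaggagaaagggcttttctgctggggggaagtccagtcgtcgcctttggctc
Gbp5: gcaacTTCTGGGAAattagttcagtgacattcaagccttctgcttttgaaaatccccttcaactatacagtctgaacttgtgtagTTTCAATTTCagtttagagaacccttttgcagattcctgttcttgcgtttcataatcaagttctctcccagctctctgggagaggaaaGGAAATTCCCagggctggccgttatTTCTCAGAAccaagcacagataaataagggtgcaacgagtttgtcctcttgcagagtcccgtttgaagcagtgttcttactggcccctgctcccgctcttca
Irf1: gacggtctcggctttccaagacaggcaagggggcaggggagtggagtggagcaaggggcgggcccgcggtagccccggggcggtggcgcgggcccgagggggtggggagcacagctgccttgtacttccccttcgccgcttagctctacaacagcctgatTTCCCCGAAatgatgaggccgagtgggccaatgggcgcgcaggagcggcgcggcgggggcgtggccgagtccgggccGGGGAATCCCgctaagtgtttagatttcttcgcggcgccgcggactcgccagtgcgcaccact

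Of the genes that sense or block viruses, 0 of 2 tested sensor probes, 0 of 17 effector probes and 0 of 4 probes of the ubiquitin-like system passed. Ddx58, the gene of the viral RNA sensor RIG-I, had 7.75, 7.52 and 7.13 in LPS-stimulated gliospheres, against 5.25, 6.97 and 6.17 in untreated gliospheres. The groups did not overlap, but untreated arrays were spread widely and the difference of 1.34 did not pass (adjusted p = 0.361 in limma). Parp14, an ADP-ribosyltransferase gene, had 8.39, 8.62 and 8.03, against 7.16, 7.44 and 7.21 in untreated gliospheres, again without overlap and with a difference of 1.08 (adjusted p = 0.483).

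Ifit2 and Ifit3 encode proteins that bind RNA and hold back the translation of viral messages. The brighter Ifit2 probe had 10.21, 10.42 and 10.09 in LPS-stimulated gliospheres, against 10.16, 10.28 and 10.28 in untreated gliospheres. The arrays of both groups overlapped, with means of 10.24 ± 0.17 in LPS-stimulated and 10.24 ± 0.07 in untreated gliospheres (SD, n = 3 each). Ifit3 had 9.49, 9.72 and 9.26 in LPS-stimulated gliospheres, against 8.93, 9.24 and 9.24 in untreated gliospheres, a difference of 0.35 that did not pass.

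Isg15, the ubiquitin-like protein that is joined to other proteins during the response, had 6.47, 7.18 and 6.76 in LPS-stimulated gliospheres, against 5.66, 6.55 and 5.79 in untreated gliospheres. The groups overlapped, and the difference was 0.80 (adjusted p = 1 in limma). Rsad2, the gene of the antiviral protein viperin, had 3.51, 4.11 and 3.07 in LPS-stimulated gliospheres, against 4.25, 4.06 and 5.49 in untreated gliospheres, and was detected on 0 of 3 and 1 of 3 of these arrays. Its fitted difference of -1.04 therefore rests on signals near background (adjusted p = 0.773). The remaining tested members had log2 differences between -0.50 (Oasl2 and Dhx58) and 1.21 (Bst2) without a call, and Usp18, Rtp4, Dhx58 and Mx2 were each detected on at most 1 array of a gliosphere group. Among these, Eif2ak2, the gene of the RNA-activated kinase PKR, had 8.36 ± 0.26 in LPS-stimulated and 8.26 ± 0.19 in untreated gliospheres (SD, n = 3 each), Samhd1, the gene of a nucleotide hydrolase that restricts retroviruses, had 6.89 ± 0.40 and 6.18 ± 0.46, and Ifi27 and Trim25, a ubiquitin ligase gene, also passed in no comparison.

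Beside the litter block, fits without 1 array ended calls for LPS, where adjusted p in limma reached 0.0853 for Gbp2 (lost without untreated replicate 2 or 3 or LPS-stimulated replicate 1 or 2), 0.144 for Gbp5 (these, LPS-stimulated replicate 3 and in vivo replicate 2) and 0.204 for Irf1 (every gliosphere array). Of 7 tested fibroblast and mesenchyme genes, Dcn and Lum rose with LPS in the same arrays, by 3.82 and 2.08 on the log2 scale (adjusted p = 0.0108 and 0.0148 in limma). The other 5 did not pass, and the part of these genes in the differences was not tested.

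**Figure D2:**
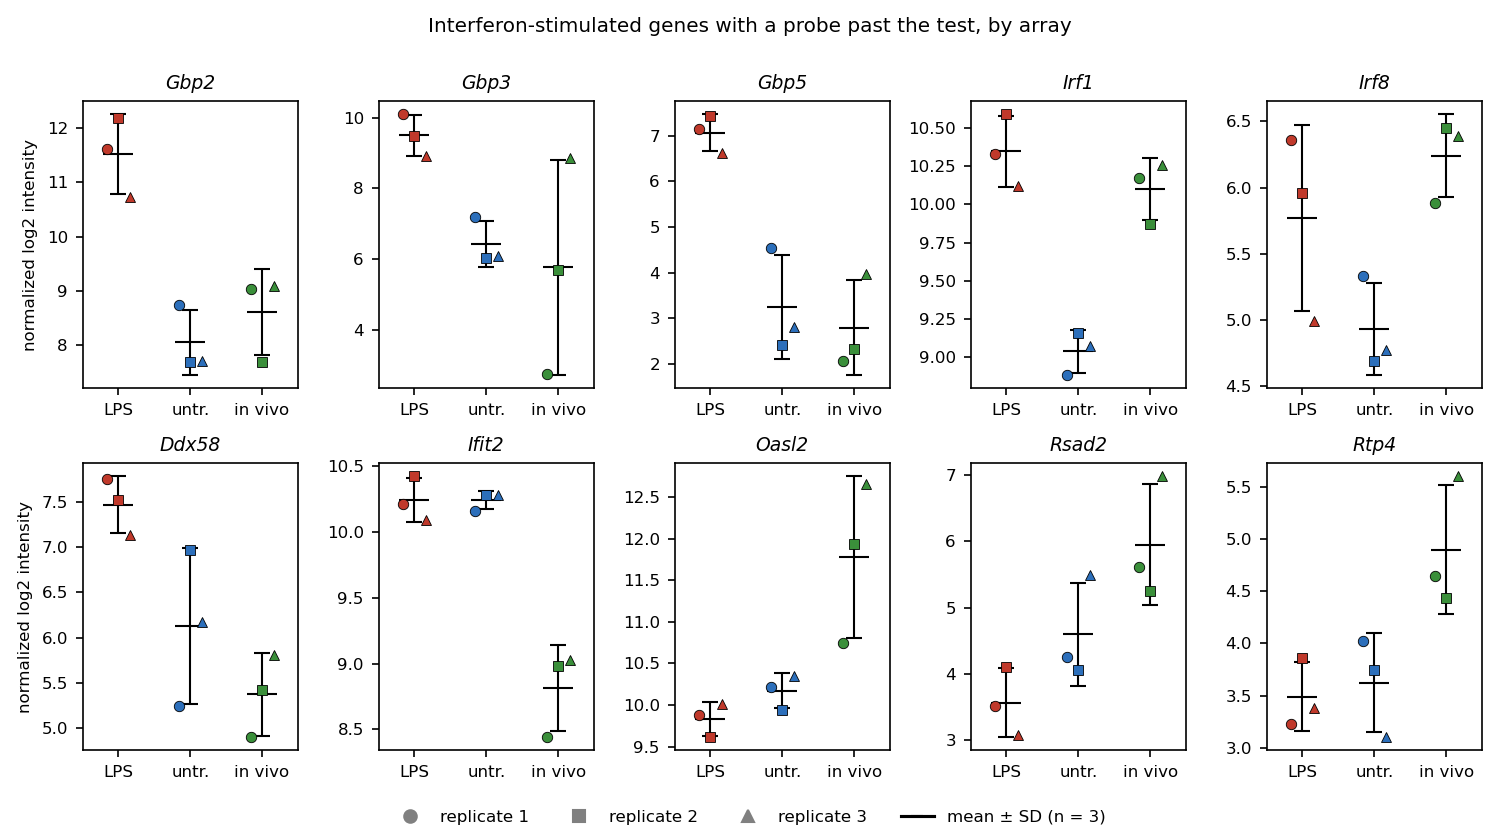
Log2 signal on each array (points) with the mean and SD of 3 arrays (bars) for the 10 member genes with a probe past the test in any comparison, for LPS-stimulated gliospheres, untreated gliospheres and GFAP-glia in vivo. Gbp2 and Gbp5 are highest with LPS, Ifit2 is higher in both gliosphere groups than in vivo, and Oasl2 is highest in vivo.

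Cultured glia without LPS were then compared with the freshly sorted cells, to see where the interferon-stimulated genes stood before stimulation. Untreated gliospheres had more Ifit2 and less Oasl2, Irf1 and Irf8 than GFAP-glia in vivo. Of the 38 member probes, 2 probes of 1 gene were higher, 6 probes of 4 genes lower and 30 did not pass, against 13.3% and 11.7% of all tested probes. The count of higher members was thus below the share over all probes, and that of lower members near it. The 3 untreated arrays lay above the 3 in vivo arrays on 2 member probes and below them on 10, against 23.2% and 17.8% of all probes. The median log2 difference was -0.42 over the tested member probes (-0.36 with members not above background at their bound) and 0.10 over all tested probes.

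The brighter probe of Ifit2 had 10.16, 10.28 and 10.28 in untreated gliospheres, against 8.44, 8.98 and 9.03 in vivo. Both Ifit2 probes were higher in untreated gliospheres on every array, with log2 differences of 1.43 (SE 0.24, adjusted p = 0.00244 in limma) and 1.43 (SE 0.23, adjusted p = 0.00234). Oasl2, which encodes a relative of the oligoadenylate synthetases that activate an antiviral RNase, went the other way on both of its probes. The brighter probe had 10.22, 9.94 and 10.35 in untreated gliospheres, against 10.74, 11.93 and 12.66 in vivo (difference -1.61, SE 0.43, adjusted p = 0.0236). The dimmer probe had 5.51, 5.14 and 5.53, against 9.26, 7.51 and 8.09 in vivo (difference -2.89, SE 0.42, adjusted p = 0.0013). Untreated arrays lay below all in vivo arrays on both, although the in vivo array with the highest signal was not the same one.

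Irf1 was lower in untreated gliospheres on the probe that had risen with LPS, at 9.04 ± 0.14 against 10.10 ± 0.21 in vivo (SD, n = 3 each), a difference of -1.06 (SE 0.23, adjusted p = 0.0089 in limma). A dim second probe of the gene gave -1.05 (SE 0.29, adjusted p = 0.0269), whereas the brightest probe gave 0.18, with 8.72, 11.52 and 11.81 on the in vivo arrays. On that brightest probe in vivo replicate 1 alone was low, and without it the difference turned to -0.80. The array left out is the one on which this probe was low, so this value is a description and no test. Irf8 had 5.33, 4.69 and 4.77 in untreated gliospheres, against 5.88, 6.45 and 6.39 in vivo, without overlap (difference -1.31, SE 0.37, adjusted p = 0.0305). Rtp4, the gene of a receptor transporter protein induced by interferon, is counted among the lower members but was detected on 1 of the 9 arrays, in vivo replicate 3, and entered the tests through that array alone. Its difference is therefore given as a description, with a bound of at least 1.09-fold below the in vivo level.

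Ifit2, the first Irf1 probe and the dimmer Oasl2 probe passed in every alternative and in every fit without 1 array. The other calls were lost in some fits without 1 array, with adjusted p up to 0.1 for the second Irf1 probe (without untreated replicate 1 or 3 or in vivo replicate 2), 0.105 for Irf8 (untreated 2 or 3, in vivo 2 or 3), 0.0838 for the brighter Oasl2 probe (any untreated array, in vivo 2 or 3) and 0.12 for Rtp4 (untreated 2 or 3, LPS-stimulated 3, in vivo 3). Other settings also ended calls, since Rtp4 passed in 2 of 9 alternatives (adjusted p up to 0.161 in limma), the second Irf1 probe in 5 of 10 (up to 0.114), Irf8 was lost with the authors' normalized values and with array weights (up to 0.0791), and the brighter Oasl2 probe was lost with only the 2 groups in the fit (0.0619).

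LPS-stimulated gliospheres were also set against the freshly sorted cells. The same in vivo arrays serve as the basis of both comparisons, so the values of the members are given side by side. Of the 38 member probes, 6 probes of 5 genes were higher in LPS-stimulated gliospheres than in vivo, 4 probes of 3 genes lower and 28 did not pass, against 15.3% and 13.3% of all tested probes, which is near the members' own shares. LPS-stimulated arrays lay above all in vivo arrays on 8 member probes and below them on 9, against 24.8% and 18.9% of all probes. The median log2 difference was 0.29 over the tested member probes and 0.10 over all tested probes.

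Gbp2 had 11.62, 12.19 and 10.73 in LPS-stimulated gliospheres, against 9.03, 7.70 and 9.10 in vivo, without overlap (difference 2.90, SE 0.51, adjusted p = 0.00272 in limma). Untreated gliospheres had differed from the in vivo arrays by -0.56 (adjusted p = 0.454). Gbp5 was not detected on any in vivo array, where its log2 signals were 2.06, 2.34 and 3.98, and was at least 4.56-fold higher in LPS-stimulated gliospheres (adjusted p = 0.00111). The dimmer Gbp3 probe was higher by 3.73 (SE 1.22, adjusted p = 0.0472), while the brighter one, at 2.09, did not pass (adjusted p = 0.0582).

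Ddx58 had 7.75, 7.52 and 7.13 in LPS-stimulated gliospheres, against 4.90, 5.42 and 5.81 in vivo. The groups were well apart, and the difference of 2.09 passed (SE 0.43, adjusted p = 0.00648 in limma). Ifit2 was higher in LPS-stimulated gliospheres by 1.43 (SE 0.24, adjusted p = 0.00199) and 1.34 (SE 0.23, adjusted p = 0.00266) on its probes, the size already given for untreated gliospheres. The Irf1 probe that rose with LPS had 10.35 ± 0.23 in LPS-stimulated gliospheres and 10.10 ± 0.21 in vivo (SD, n = 3 each), a difference of 0.25 that did not pass (adjusted p = 0.452).

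Oasl2 was lower in LPS-stimulated gliospheres than in vivo on both probes, by -1.95 (SE 0.43, adjusted p = 0.00887 in limma) and -3.39 (SE 0.42, adjusted p = 0.000415). Rsad2 was detected on 0 of 3 LPS-stimulated arrays and on 3 of 3 in vivo arrays, with 3.51, 4.11 and 3.07 against 5.61, 5.25 and 6.98. This places it at least 2.16-fold lower in LPS-stimulated gliospheres (adjusted p = 0.00918). Rtp4, tested only through its detection on in vivo replicate 3, is among the lower members here too, with a bound of at least 1.04-fold that is again a description.

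In fits without 1 array, the call for Gbp3 held only without in vivo replicate 3, with adjusted p up to 0.128 without any other array, and that for Rtp4 was lost without LPS-stimulated replicate 1 or 3 (up to 0.0726). Gbp3 was also lost without the detection filter, with array weights, with only the 2 groups in the fit and with the replicate block (adjusted p up to 0.0971 in limma), and Rtp4 with quantile normalization and with the authors' normalized values (up to 0.119). Without in vivo replicate 3, 18 member probes passed in place of 10, with 13 higher and 5 lower in LPS-stimulated gliospheres, while over all tested probes 3983 passed (26.9%) in place of 4225. Many members were high on in vivo replicate 3, so this gain is a description only.

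That array stood apart in its interferon-stimulated genes. In vivo replicate 3 had the highest of the 3 in vivo signals on 29 of 38 member probes, in vivo replicate 1 on 4 and in vivo replicate 2 on 5, whereas over all tested probes these shares were 20.7%, 40.7% and 38.6%. It exceeded both other in vivo arrays by more than 1 log2 unit on 15 member probes, against 2.69% of all probes. In vivo replicate 1 was the lowest on 22 of 38 member probes (41.0% of all probes), and below both others by more than 1 on 5. Over all probes in vivo replicate 1 departed the most, with 13.7% above and 11.6% below both others by more than 1. The median difference between in vivo replicate 3 and the mean of the other in vivo arrays was 1.10 over the member probes and -0.11 over all probes. With the authors' normalized values, in vivo replicate 3 was the highest on 33 of 38 member probes (30.0% of all probes), exceeded both others by more than 1 log2 unit on 8 (0.203% of all probes) and had a median difference of 0.46 (-0.01 over all probes). These are descriptions of single arrays, with no test.

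**Figure D3:**
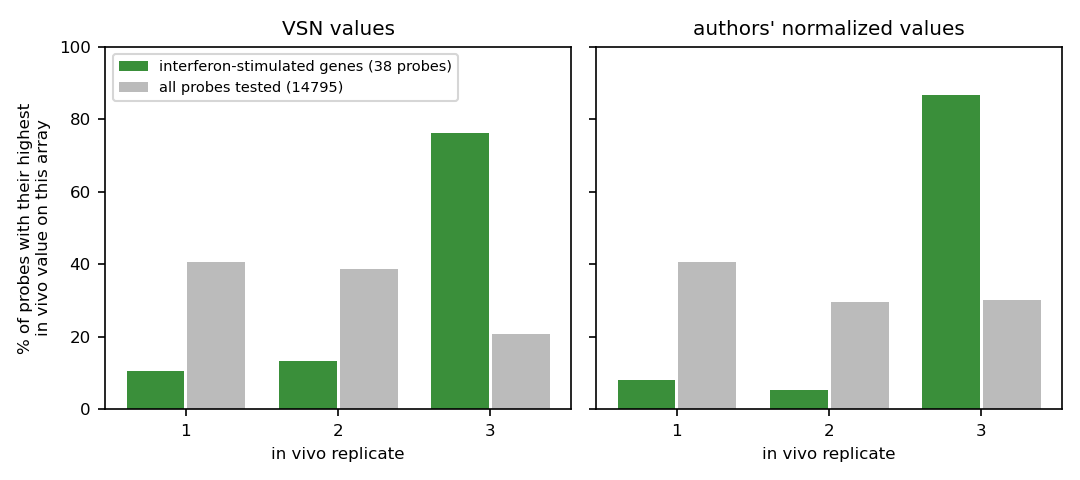
Percent of probes whose highest in vivo signal was on replicate 1, 2 or 3, for the 38 member probes and for all 14795 tested probes, with the log2 signals used here and with the authors' normalized values. In vivo replicate 3 takes 29 of 38 and 33 of 38 member probes, against 20.7% and 30.0% of all probes.

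Isg15, of the ubiquitin-like system, had 5.23, 5.32 and 8.42 on in vivo replicates 1 to 3, against 5.66 to 7.18 over the 6 gliosphere arrays. Its deposited signals, before correction, were 172.7, 134.2 and 271.2. Usp18, the protease that removes ISG15 from its targets and dampens the interferon receptor, had 4.93, 4.34 and 8.53 on its brighter probe and 3.46, 3.14 and 7.11 on the other. On the other probe Usp18 was detected on in vivo replicate 3 only, and on no gliosphere array by either probe.

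All 7 tested GTPase probes were highest on in vivo replicate 3. Gbp3 had 6.37, 6.79 and 9.46 on its brighter probe and 2.77, 5.69 and 8.85 on the other, near the level of the LPS-stimulated gliospheres only on replicate 3. Igtp had 7.94, 8.02 and 10.13 on the in vivo arrays, where replicates 1 and 2 lay just above all gliosphere arrays and replicate 3 well above them. Irgm1, an immunity-related GTPase that also acts in autophagy, had 6.16, 7.12 and 8.74 on its dimmer probe and 11.04, 12.29 and 12.51 on its brighter one. Gbp5, at 2.06, 2.34 and 3.98, stayed undetected there too.

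Of the antiviral effectors, 13 of 17 probes were highest on in vivo replicate 3. Ifit3 had 7.02, 7.35 and 10.87, with replicate 3 above and replicates 1 and 2 below all gliosphere arrays, and deposited signals of 251.3, 218.5 and 945.9. Rsad2 had 5.61, 5.25 and 6.98. Oasl2 had 10.74, 11.93 and 12.66 on its brighter probe, whereas its other probe was highest on replicate 1. Ifi35, with 7.26, 5.17 and 6.83, was highest on replicate 1 as well and owed its wide span to a low replicate 2.

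The transcription factors were mixed, with 4 of 8 probes highest on replicate 3. Irf9 had 6.51, 7.31 and 8.41 and Stat2 had 6.27, 6.85 and 6.84 on the in vivo arrays. Irf7 was detected on 1 array of all 9, in vivo replicate 1, with 5.90, 2.97 and 3.88 on the 3 in vivo arrays. On its brightest probe Irf1 had 8.72, 11.52 and 11.81, and the first replicate alone was low. On the Irf1 probe that rose with LPS the in vivo arrays were close together, at 10.17, 9.87 and 10.26.

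**Figure D4:**
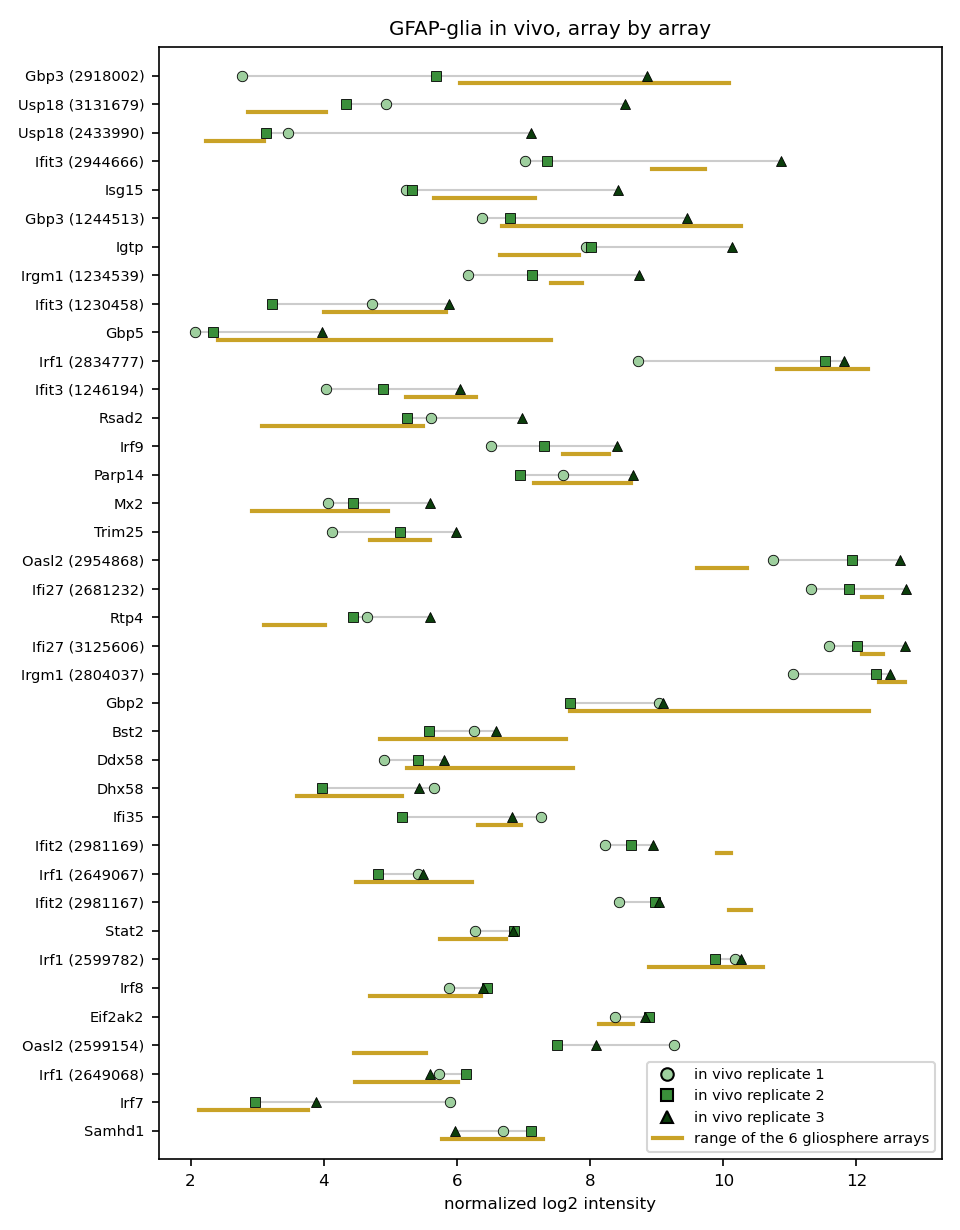
Log2 signal of the 38 tested member probes on in vivo replicates 1, 2 and 3 (points), sorted by the difference between replicate 3 and the mean of the others, with the range of the 6 gliosphere arrays as a bar. Gbp3, Usp18, Ifit3 and Isg15 stand at the head, with in vivo replicate 3 far above replicates 1 and 2.

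Over the groups, 13 member probes of 9 genes spanned more than 2 log2 units on the in vivo arrays (14.6% of all probes did), against 0 on the LPS-stimulated and 2 on the untreated arrays (1.71% and 1.64% of all probes). The median SD of the member probes was 0.29 in LPS-stimulated gliospheres, 0.34 in untreated gliospheres and 0.90 in vivo, and that of all probes 0.23, 0.26 and 0.55. No gliosphere array was highest on a like number of member probes. The members' highest signals fell on LPS-stimulated replicates 1 to 3 for 12, 17 and 9 probes (33.4, 36.4 and 30.2% of all probes). On untreated replicates 1 to 3 they fell for 9, 14 and 15 probes (38.5, 28.1 and 33.4% of all probes). Untreated replicate 1 was the lowest of its group on 19 of 38 member probes (31.8% of all probes). Its median difference from the mean of the other untreated arrays was -0.20 over the member probes and 0.04 over all probes. Other lists on in vivo replicate 3 varied, with 23 of 42 probes of further interferon-stimulated genes, 3 of 4 enteric glia probes, 2 of 4 endothelium and pericyte probes, 4 of 9 macrophage and leukocyte probes, 7 of 25 probes of interferon receptors and their signalling, 0 of 4 ligand probes and 0 of 8 smooth muscle probes highest there. The median difference between in vivo replicate 3 and the mean of the others was 0.81 for the enteric glia list, 0.86 for endothelium and pericyte and 0.40 for macrophage and leukocyte. Of 10 macrophage and leukocyte genes, 3, 4 and 5 were detected on in vivo replicates 1 to 3, with mean log2 signals of 4.33, 4.55 and 4.68, and the part of these cell types in the members' levels was not tested.

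Without in vivo replicate 3, untreated gliospheres were higher than the remaining in vivo arrays on 5 member probes (Ifit2, Ifit3 and Irf9) and lower on 3 (Irf1 and Oasl2), while over all tested probes 3474 passed (23.5%) in place of 3709. Ifit3 then differed by 1.95 on its brightest probe, against 0.72 with all arrays (adjusted p = 0.566 in limma). In LPS-stimulated gliospheres Ifit3, Irf9, Irgm1, Isg15 and Parp14 joined the higher members. Isg15 then differed by 1.53, against 0.48 with all arrays (adjusted p = 0.673 in limma). The array left out is the one on which these members were high, so the larger differences follow from that choice. They are descriptions and no test of a difference.

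Isg15 and Ifit3 headed the differences on that array together with Gbp3 and Usp18, and their promoters are shown for comparison with those of the guanylate-binding genes. In the same window and with the same capitals, Isg15 (chr4:156200769-156201068, minus strand) held 3 overlapping ISRE cores and Ifit3 (chr19:34583279-34583578, plus strand) held 2, and neither held a GAS or NF-kB motif.
Isg15: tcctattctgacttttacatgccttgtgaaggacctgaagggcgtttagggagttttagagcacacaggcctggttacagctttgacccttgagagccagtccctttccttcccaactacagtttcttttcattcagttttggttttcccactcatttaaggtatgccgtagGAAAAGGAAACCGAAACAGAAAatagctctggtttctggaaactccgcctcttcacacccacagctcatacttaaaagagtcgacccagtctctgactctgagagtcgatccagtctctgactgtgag
Ifit3: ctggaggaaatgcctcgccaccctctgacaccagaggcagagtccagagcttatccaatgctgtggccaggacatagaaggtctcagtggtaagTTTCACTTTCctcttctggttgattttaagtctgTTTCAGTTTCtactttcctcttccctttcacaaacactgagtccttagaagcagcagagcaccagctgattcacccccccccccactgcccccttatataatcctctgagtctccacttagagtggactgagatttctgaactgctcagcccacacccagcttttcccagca

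Promoters were found for 28 of the 37 members. The ISRE core stood in the promoter of 15 of these 28 genes (53.6%), against 3.99% of all 27025 genes, the GAS motif in 10 (35.7%, against 9.55%) and the NF-kB motif in 7 (25.0%, against 9.55%). The 7 genes with an NF-kB motif were Bst2, Gbp2, Gbp5, Ifit2, Irf1, Isg20 and Oasl1. Bst2, Gbp2 and Gbp5 held both an ISRE core and an NF-kB motif (10.7% of the members and 0.366% of all genes). In Bst2, the gene of the virus-tethering protein tetherin, the NF-kB, GAS and ISRE matches overlapped or adjoined one another, and its log2 signals were 7.15, 7.64 and 6.95 in LPS-stimulated gliospheres, against 4.84, 6.39 and 6.90 in untreated gliospheres, without a call (adjusted p = 0.601 in limma). These matches of letters do not show binding.

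Genes up and down the pathway were read in the same arrays. Of 19 listed interferon genes 17 had probes, 4 were detected and tested, and 0 passed in any comparison. The probes of Ifnb1, Ifng and the receptor gene Ifnar1 were detected on no array. From culture supernatants, the study reported more interferon-gamma protein with LPS, the only cytokine rise it called highly significant. That is a measure of protein, whereas RNA was read here. For LPS against untreated gliospheres, 0 of 14 tested genes for receptors, JAK-STAT signalling and its feedback passed, 0 of 15 genes that relay the induction of interferon, and 1 of 30 further interferon-stimulated genes, against 0.88% of all 10796 genes that rose by any probe and 0.213% that fell. The exception was Ccl5, a chemokine that attracts T cells, which rose by 5.12 on the log2 scale to 9.78 ± 0.50 in LPS-stimulated gliospheres, against 4.67 ± 1.63 in untreated gliospheres (SD, n = 3 each, adjusted p = 0.0108 in limma). As for the members, more probes of these lists lay higher with LPS. All 3 LPS-stimulated arrays were above all 3 untreated arrays on 10 of 25, 11 of 23 and 17 of 42 probes, in the same order of lists. They were below them on 1, 0 and 2, against 10% and 9.19% of all probes.

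Against the freshly sorted cells, 6 of the 14 receptor and signalling genes were higher and 2 lower in LPS-stimulated gliospheres, where 17.3% of all genes were higher and 15.6% lower by any probe. In untreated gliospheres 3 were higher and 3 lower, where 15.3% of all genes were higher and 13.8% lower. Ifngr1, which encodes the ligand-binding chain of the interferon-gamma receptor, had 10.21, 10.40 and 10.32 in LPS-stimulated gliospheres, 9.84, 9.77 and 9.67 in untreated gliospheres and 7.45, 7.77 and 8.28 in vivo. It was higher in both cultures without overlap, by 2.48 with LPS (adjusted p = 0.000117 in limma) and by 1.93 without (adjusted p = 0.000652). Ifnlr1, the receptor of type III interferons, was detected on its most changed probe on 3 of 3 in vivo arrays and on 0 of 3 arrays of each gliosphere group, which bounds the difference at 2.27-fold or more below in vivo in LPS-stimulated gliospheres (adjusted p = 5.4e-06) and at 2.37-fold or more below in untreated gliospheres (adjusted p = 1.4e-05). Tlr4, the receptor for LPS, was detected on all gliosphere arrays and on 0 of 3 in vivo arrays, with at least 8.59-fold more signal in LPS-stimulated gliospheres (adjusted p = 0.000111) and at least 4.08-fold more in untreated gliospheres (adjusted p = 0.00065). Socs3, a feedback inhibitor of JAK kinases, was lower in untreated gliospheres by -3.89 (adjusted p = 0.000763).

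Of the 30 further interferon-stimulated genes, 8 were higher and 4 lower in LPS-stimulated gliospheres than in vivo, and 3 were higher and 3 lower in untreated gliospheres, where both counts lay below the shares of all genes. Lgals9, the gene of a sugar-binding galectin, was detected on its most changed probe on 3 of 3 in vivo arrays and on 0 of 3 arrays of each gliosphere group, with at least 3.08-fold less signal in LPS-stimulated gliospheres (adjusted p = 9.3e-05 in limma) and at least 3.21-fold less in untreated gliospheres (adjusted p = 0.000111). Ccl5, not detected in vivo, was at least 30.0-fold higher in LPS-stimulated gliospheres (adjusted p = 9.5e-05). Beside these, of 7 tested fibroblast and mesenchyme genes 2 were higher in LPS-stimulated gliospheres than in vivo (Col3a1 and Lum) and 0 lower, and in untreated gliospheres 1 was higher (Lum) and 1 lower (Dcn). The immediate early gene Junb and the stress gene Hspa1a were lower in untreated gliospheres than in vivo by -3.34 and -5.52 (adjusted p = 5.2e-05 and 9.8e-05 in limma), and the part of these lists in the members' levels was not tested.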

How the data were processed

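Each of the 9 arrays is 1 sample. The signal table deposited by the authors holds GenomeStudio intensity per probe, without background correction or normalization (version not given in the sources used here), and the authors' detection p-value beside every signal. A second deposited table holds normalized intensity, with medians of 164.2 to 164.4 and the same distribution on every array, as quantile normalization leaves it, although the methods name VSN. In both, most cells stood without their decimal point (95.7 to 98.2% of an array's signals), and the point was put back by matching the rank order of each array's values in the 2 tables.

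Background was corrected by normexp from the detection p-values, and VSN was run over all 9 arrays in code written for this work. Probes were tested where they had a symbol and a detection p of at most 0.05 on at least 1 array. The study's removal of badly performing probes was not repeated. limma 3.58.1 (R 4.3.3) fitted group means to 14795 probes with 6 residual degrees of freedom (prior 3.22), and p-values of its moderated test were adjusted over all of them (Benjamini-Hochberg, threshold 0.05). A gene counts as called when any of its probes does. Precision is limited by the number of arrays. The main fit pools the spread over all 3 groups, so its p-values between gliosphere groups also carry the spread in vivo. Member probes had a median SD of 0.29 in LPS-stimulated gliospheres, 0.34 in untreated gliospheres and 0.90 in vivo. The main fit does not use the shared litters of the gliospheres. A difference between gliosphere groups that did not pass is therefore not shown to be absent. Scripts were tested on simulated data.

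By the series design, gliospheres of the same replicate number share a litter. Pairs of one litter had correlated deviations from their group means (0.16, 0.09 and 0.17), and pairs of different litters had -0.14 to -0.02. Litter was therefore kept as a block in an alternative. In vivo arrays are not tied to the litters of the gliospheres.

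The members, role groups, pathway and marker lists were chosen with earlier results of these data known. Values on every array are given for members with a probe past the test in any comparison, for Isg15, Stat2, Irf7 and Irf9, and for members whose in vivo arrays span more than 2 log2 units, by the probe with the highest mean and any other probe past the test. Values on every array of Bst2 and Parp14, and of further probes, were added after their values were seen. Of the pathway lists, genes with the smallest p were named, with Ifnb1, Ifng, Ifnar1 and Ifngr1. Alternatives were quantile normalization, no background correction, no or a stricter detection filter, the authors' normalized values, trended and robust variances, array weights, fits of 2 groups, replicate blocks, VSN on detected probes and fits without 1 array. Promoter sequences are RefSeq's, on GRCm38.p6.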

Additional observations from a re-analysis of the deposited data

How the results depend on the processing

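For LPS-stimulated against untreated gliospheres, 3 member probes passed, but 6 with array weights (432 probes in all, against 130), 5 with only the 2 groups in the fit (212 in all) and 1 with the replicate number as a block over all 9 arrays (105 in all), where Gbp5 had an adjusted p of 0.0765 and Irf1 of 0.107. With litter as a block and only the gliosphere arrays, 2 passed, both of Gbp3, and with the authors' normalized values in that fit, an alternative chosen after seeing the data, 9 passed (Ddx58, Gbp2, Gbp3, Gbp5, Igtp, Irf1 and Parp14, of 1226 in all). Without the detection filter Irf1 was lost (adjusted p = 0.0849 in limma). Without 1 array, 0 to 4 member probes passed, with 0 without untreated replicate 2 or 3 or LPS-stimulated replicate 1 or 2 and 1 without LPS-stimulated replicate 3. For untreated gliospheres against GFAP-glia in vivo, 8 passed, but 5 with the authors' normalized values and 5 with only the 2 groups in the fit, and 4 to 10 without 1 array (4 without untreated replicate 3, 5 without untreated replicate 2). For LPS-stimulated gliospheres against GFAP-glia in vivo, 10 passed, and 8 to 18 without 1 array (18 without in vivo replicate 3). The brightest Irf1 probe differed by 0.18 between untreated gliospheres and in vivo arrays, by -0.80 without in vivo replicate 1 and by up to 0.75 without another array. Of 21 calls followed, 12 passed in every alternative and every fit without 1 array, and 21 kept their direction. Against in vivo arrays, the replicate block lost Rtp4 for untreated and Gbp3 for LPS-stimulated gliospheres, and no other call. The cause of these changes was not tested. Probes near background, such as those of Rsad2, Rtp4, Usp18 and Gbp5 without LPS, limit what can be said of low levels.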

Other observations

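Further interferon-stimulated genes outside the set also had single high values on in vivo replicate 3. Ifi47, an immunity-related GTPase gene, was detected on that array only, with log2 signals of 3.15, 3.73 and 7.75 on in vivo replicates 1 to 3. Irgm2, of the same family, had 6.15, 8.08 and 9.83, and Psmb9, a subunit gene of the immunoproteasome, had 6.67, 6.90 and 8.19. Cmpk2, a nucleotide kinase gene, had 9.28, 10.16 and 10.33, so that replicates 2 and 3 were close. Zbp1, which senses nucleic acids, had 6.87, 6.04 and 6.28 on its detected probe and was highest on replicate 1. Gbp7, a guanylate-binding gene outside the set, averaged 7.31 ± 0.06 in LPS-stimulated and 5.42 ± 0.06 in untreated gliospheres (SD, n = 3 each), a log2 difference of 1.89 just short of the threshold (adjusted p = 0.0503 in limma). These genes were chosen after their values were seen. The 19 member probes detected on no array had log2 signals between 1.09 and 4.59.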
